A study of Mus musculus with 8 samples.

Results

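The sarcomeric myosin heavy chains are the motor proteins of the thick filament of striated muscle, and 6 genes that encode them were followed here in mouse quadriceps muscle after chronic low oxygen: Myh4, Myh1 and Myh2 of adult fast fibres, Myh7 of slow fibres, and Myh8 and Myh3, which are typical of muscle before and around birth. They are 6 of 18193 genes with a probe set of their own on the array. Their 9 probe sets were chosen as those which the array annotation pairs with exactly 1 of the 6 symbols, out of 45101 probe sets on the array. Myh1 had 3 probe sets, Myh4 had 2 and each of the other genes had 1. The hypoxia group was 4 arrays of quadriceps from adult male C57Bl/10 mice kept in a closed chamber, where oxygen was lowered gradually, from 21% to 8%, over the first week and then held there for 7 days. The control group was 4 arrays of quadriceps from mice of the same strain, sex and age class kept at room condition over the same 2 weeks. The chamber is described for the hypoxia group alone, so housing in it and low oxygen cannot be told apart, and fibre types were not separated before RNA was isolated.

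A muscle fibre is classed by the myosin heavy chain it makes, since the isoform sets how fast the fibre shortens and how much ATP it uses. Mouse limb muscle ranges from slow type I fibres with Myh7, through type IIa with Myh2 and type IIx with Myh1, to the fastest and most glycolytic type IIb with Myh4, and quadriceps is a mostly fast muscle. Fibres can shift along this order with load, nerve activity and disuse, and the developmental isoforms can reappear in regenerating fibres.

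On the GRCm38.p6 assembly of RefSeq the fast and developmental genes lie in a row on the plus strand of chromosome 11, in the order Myh3 at chr11:67078273-67102291, Myh2 at chr11:67171027-67197517, Myh1 at chr11:67200102-67224577, Myh4 at chr11:67237812-67260447 and Myh8 at chr11:67277124-67308634, with the extraocular isoform gene Myh13 after them. These 6 myosin genes span 293315 bases. Myh7 lies elsewhere, on the minus strand at chr14:54970684-54994626, next to the cardiac gene Myh6. The promoter windows of Myh2, Myh1, Myh4 and Myh8, from 250 bases before to 50 after the RefSeq gene start, are printed because these 4 neighbours share 1 exact run of 14 bases. That run, TTCTAATTATATCC, is in capitals, and all 4 windows read 5′ to 3′ on the plus strand, at chr11:67170777-67171076 for Myh2, chr11:67199852-67200151 for Myh1, chr11:67237562-67237861 for Myh4 and chr11:67276874-67277173 for Myh8.
Myh2: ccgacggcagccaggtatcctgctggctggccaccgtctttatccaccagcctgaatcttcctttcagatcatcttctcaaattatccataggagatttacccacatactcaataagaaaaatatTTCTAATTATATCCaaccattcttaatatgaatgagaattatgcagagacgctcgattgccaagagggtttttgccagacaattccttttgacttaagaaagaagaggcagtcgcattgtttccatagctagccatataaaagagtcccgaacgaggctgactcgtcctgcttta
Myh1: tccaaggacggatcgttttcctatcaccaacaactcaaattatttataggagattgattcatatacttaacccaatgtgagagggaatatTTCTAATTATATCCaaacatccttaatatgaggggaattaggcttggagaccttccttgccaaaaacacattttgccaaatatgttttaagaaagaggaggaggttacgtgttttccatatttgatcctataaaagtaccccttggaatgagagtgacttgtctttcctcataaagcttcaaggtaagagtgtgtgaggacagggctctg
Myh4: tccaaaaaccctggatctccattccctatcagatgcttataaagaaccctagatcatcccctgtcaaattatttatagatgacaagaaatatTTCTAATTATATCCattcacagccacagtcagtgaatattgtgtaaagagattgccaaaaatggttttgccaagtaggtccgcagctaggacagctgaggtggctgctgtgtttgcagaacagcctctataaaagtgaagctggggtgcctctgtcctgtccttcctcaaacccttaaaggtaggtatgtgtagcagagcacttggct
Myh8: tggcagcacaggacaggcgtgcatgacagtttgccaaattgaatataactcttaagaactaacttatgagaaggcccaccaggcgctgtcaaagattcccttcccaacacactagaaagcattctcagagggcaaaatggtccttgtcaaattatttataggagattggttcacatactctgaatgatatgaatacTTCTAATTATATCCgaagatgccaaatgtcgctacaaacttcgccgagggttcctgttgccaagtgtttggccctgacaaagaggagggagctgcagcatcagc

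The run was found by setting these 4 windows side by side, so its presence in them describes the choice. A search of both strands found it in 4 of 32851 RefSeq promoter windows, or 0.0122%, which were these same 4. It began 125 bases before the start of Myh2, 160 before Myh1, 158 before Myh4 and 54 before Myh8. The windows of Myh3 and Myh7 did not hold it. Shorter motifs were searched on both strands as well. They were TATAAAA, which is a TATA box, CAGCTG, an E-box of the kind that MyoD binds, and ACGTG, the core that hypoxia-inducible factors bind. The letters TTGCCA were searched too, and no binding protein is assigned to them here. Of all windows, 5.48% held TATAAAA, 16.3% held CAGCTG, 19.6% held ACGTG and 14.04% held TTGCCA. The TATA box lay 32 bases before Myh1, 31 before Myh4 and 29 before Myh3, and in Myh2 the same letters began 10 bases after the annotated start. CAGCTG occurred in the window of Myh4 alone among the 6 genes, 67 bases before the start. ACGTG occurred in the windows of Myh1 and Myh3. TTGCCA occurred in 5 of the 6 genes' windows, with 2 matches each in Myh2, Myh1, Myh4 and Myh8 and 1 in Myh3. A match of letters is a description and not a binding site, and a missing match says only that the letters are not in that window.

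**Figure D1:**
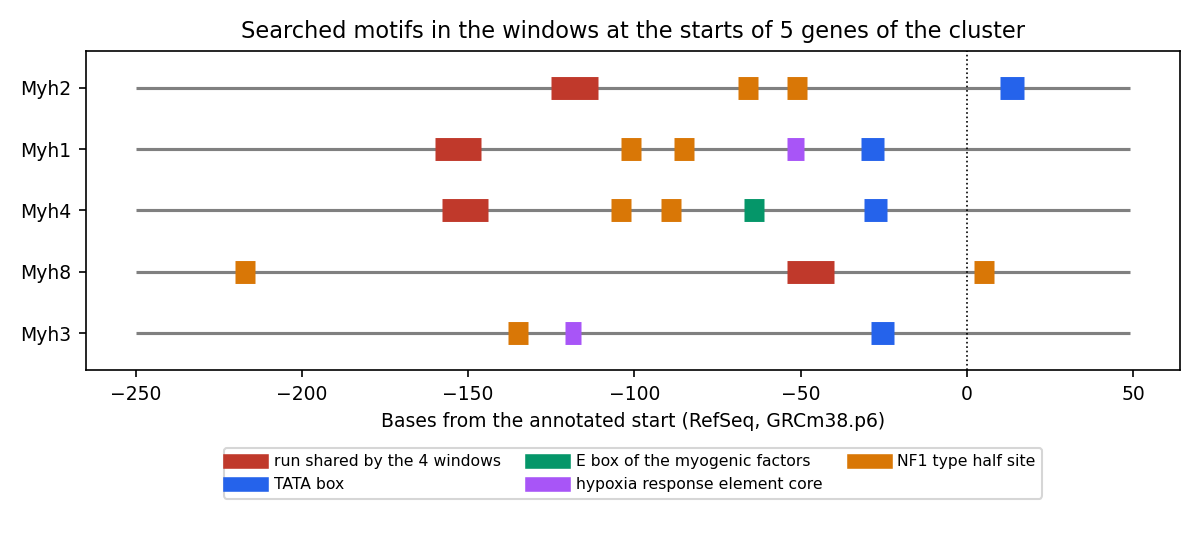
Positions of the 5 searched motifs in the promoter windows of the myosin heavy chain genes, in bases from the RefSeq gene start at 0, with 1 row per gene and 1 coloured block per match. Myh7, whose window had no match, is not drawn. The shared 14-base run appears in the rows of Myh2, Myh1, Myh4 and Myh8, beginning between 54 and 160 bases before the start.

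The arrays carried skeletal muscle RNA: all 8 of the listed fibre markers, Myh4 among them, were bright enough to be tested. The 4 cardiac markers Myh6, Nppa, Tnni3 and Myl7 all fell among the dim probe sets. The median signal of an array lay between 128 and 165, and the deposited signals had been scaled so that every array had a trimmed mean of 500.0. The array labelled Hypoxia 1 stood apart in the RNA quality controls, with a ratio of 3′ to 5′ signal of 3.44 for Gapdh, against 0.801 to 0.874 on the other hypoxia arrays and 0.776 to 0.807 on the control arrays. For beta-actin the ratio was 2.53 on Hypoxia 1 and 1.40 to 1.59 on the other hypoxia arrays, all above the 1.09 to 1.25 of the control arrays. The brightest signal on an array was 42966 to 63466 in hypoxia, and 63939 to 75518 in control. Fast myosins are among the brightest probe sets, and whether the scanner's upper range compressed differences there was not tested. Each myosin heavy chain call that changed when Hypoxia 1 was left out is given below without it.

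Of the 9 myosin heavy chain probe sets, 4 were lower in hypoxic than in control quadriceps, 1 each of Myh2 and Myh1 and both of Myh4, none was higher, and 5 did not pass the test. The background was large: 28.8% of the 27023 probe sets tested differed at an adjusted p below 0.05. In hypoxia 16.4% were lower and 12.5% higher. The test was limma on log2(signal + 16) with Benjamini-Hochberg adjustment over all 27023 probe sets, and the same test gives each adjusted p below. The median change of the 9 probe sets was -0.44 on the log2 scale, against -0.04 over all probe sets tested. In 2 of the 9, hypoxia and control arrays did not overlap and hypoxia was lower, and 17.0% of all probe sets tested had this pattern, of the 30.1% without overlap and the 13.1% without overlap and higher. In whole muscle, fewer fibres of a type and less RNA per fibre cannot be told apart.

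**Figure D2:**
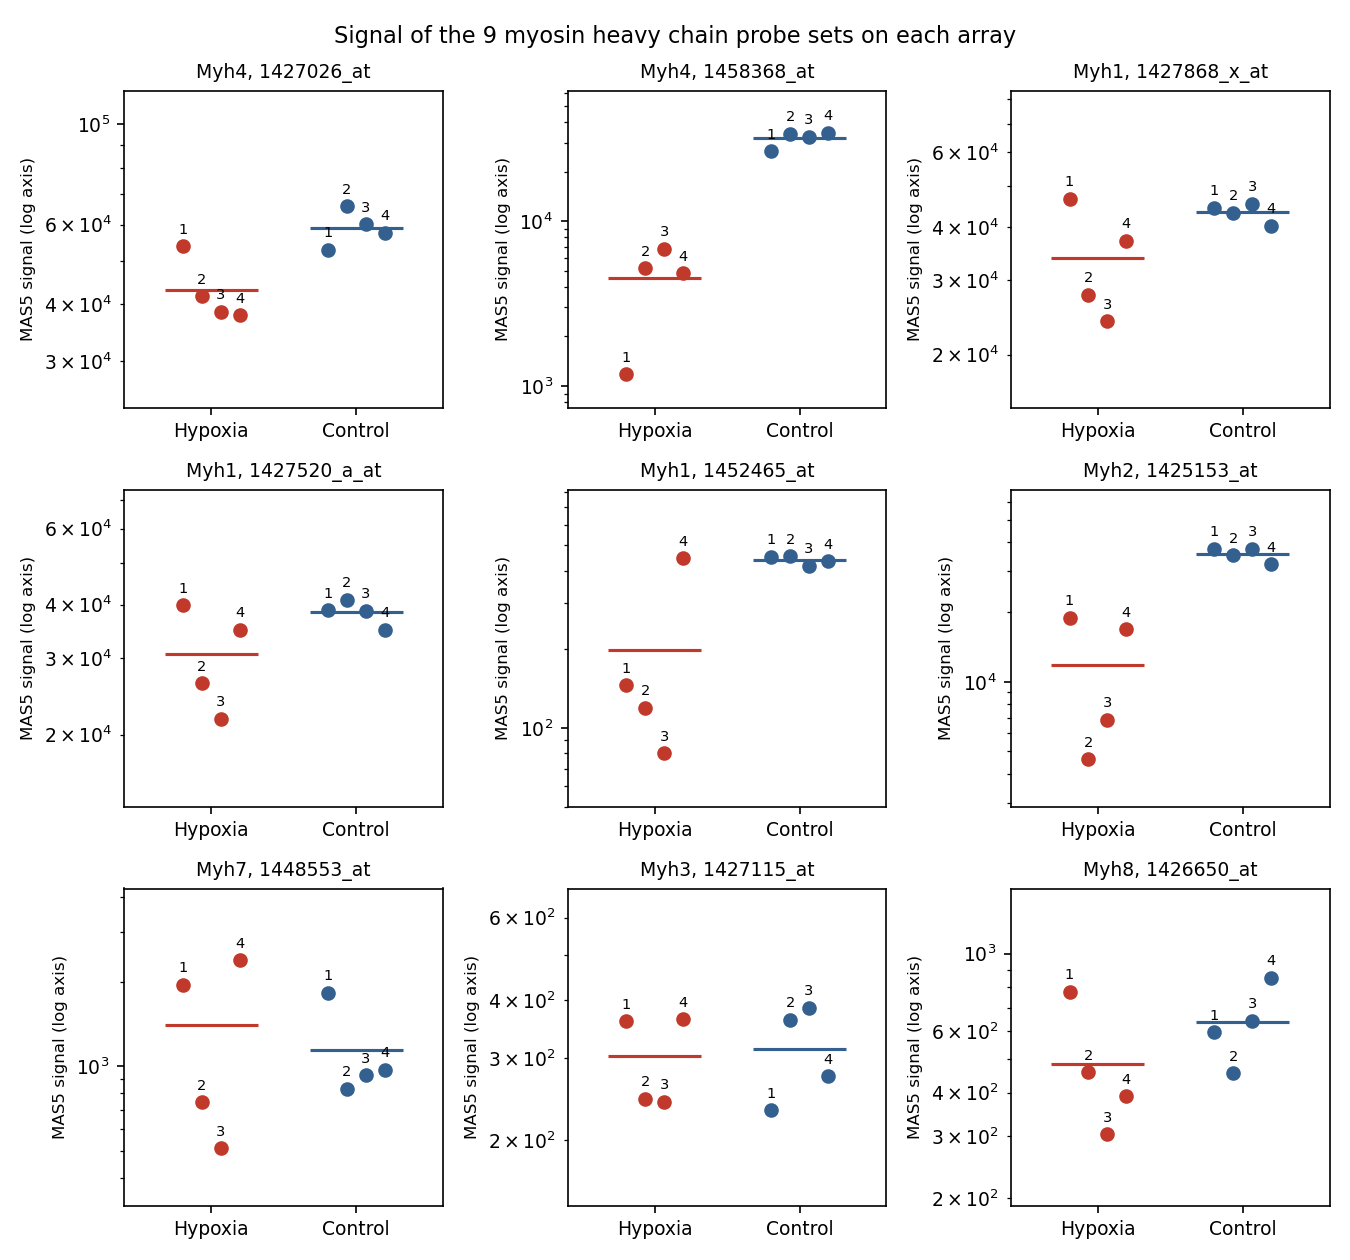
Signal of each of the 9 myosin heavy chain probe sets on each array, on log axes, 1 panel per probe set, with the 4 hypoxia arrays left of the 4 control arrays and a bar at each group's mean. The groups are apart for Myh2 and for 1458368_at of Myh4, and overlap in the other panels.

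Myh2, the heavy chain of fast oxidative type IIa fibres, fell in all 4 hypoxia arrays. Its signal was 18912, 4621.5, 6846 and 16816 on Hypoxia 1 to 4, against 37572, 35188, 37488 and 32204 on Control 1 to 4. Every hypoxia array lay below every control array, and Hypoxia 1 and 4 were well above Hypoxia 2 and 3. No hypoxia array had more than 53.1% of the control mean. The group means were 11799 ± 7113 in hypoxia and 35613 ± 2527 in control (SD, n = 4 each). The change was -1.83 ± 0.36 (SE) on the log2 scale, with a 95% interval of -2.61 to -1.04, or 3.54-fold lower, with a limma adjusted p of 0.00243.

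Myh4, the heavy chain of fast glycolytic type IIb fibres, was read by 2 probe sets, which both fell, the first 1.39-fold and the second 8.37-fold. Probe set 1427026_at, one of the 33 brightest probe sets on every array, had signals of 53744, 41726, 38519 and 37885 in hypoxia, against 52885, 65929, 60205 and 57578 in control. Hypoxia 1 lay among the control arrays and the other 3 hypoxia arrays lay below all of them. The means were 42969 ± 7378 in hypoxia and 59149 ± 5440 in control (SD, n = 4 each), a change of -0.47 ± 0.14 (SE) or 1.39-fold lower, with a limma adjusted p of 0.0277. That call depended on the scaling: with quantile normalization the change was -0.08 and the adjusted p 0.552, and with each array centred on its median they were -0.39 and 0.167. It was also lost without any 1 of Hypoxia 2, 3 or 4 or Control 2, 3 or 4, at adjusted p between 0.0525 and 0.085. At an unchanged fold it was lost with no filter on dim probe sets (adjusted p = 0.136) and with no intensity trend in the limma fit (adjusted p = 0.074).

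Probe set 1458368_at, also paired with Myh4, had signals of 1184.5, 5191, 6823.5 and 4830 in hypoxia, against 26562, 33941, 32616 and 34474 in control. Every hypoxia array lay far below every control array, and Hypoxia 1 was the lowest of all. The means were 4507 ± 2379 in hypoxia and 31898 ± 3642 in control (SD, n = 4 each). The change was -3.06 ± 0.41 (SE), with a 95% interval of -3.96 to -2.17, or 8.37-fold lower, with a limma adjusted p of 0.000156. Without Hypoxia 1, whose signal was 3.71% of the control mean, the change was -2.51 and the adjusted p 4.89e-07.

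The 2 Myh4 probe sets were then set against each other within each array, a comparison chosen after their values were seen. The log2 ratio of 1458368_at to 1427026_at was -5.48, -3.003, -2.49 and -2.97 in hypoxia, against -0.99, -0.96, -0.88 and -0.74 in control. The groups did not overlap, and the difference of their means was -2.59. The exact two-sided permutation p was 0.0286, the smallest that 4 arrays against 4 allow, and 0.0857 after adjustment over the 3 such ratios computed. Without Hypoxia 1 the difference was -1.93. So one annotated symbol had a 1.39-fold and an 8.37-fold value on the same arrays. Which part of the Myh4 transcript each probe set reads is not given in the sources used here, and a part of degraded RNA in the difference was not tested.

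Myh1, the heavy chain of type IIx fibres, was read by 2 bright probe sets and 1 dim one. The brightest, 1427868_x_at, also stands for Myh1 in the shares and ratios below. Whether it also reads the neighbouring myosins was not tested. Probe set 1427868_x_at had signals of 46666, 27646, 23979 and 37138 in hypoxia, against 44457, 43193, 45342 and 40278 in control. Hypoxia 1 was above every control array, while Hypoxia 2 and 3 were far below them. The means were 33857 ± 10181 in hypoxia and 43317 ± 2210 in control (SD, n = 4 each), a change of -0.40 ± 0.19 (SE) with a 95% interval of -0.81 to 0.01 and a limma adjusted p of 0.133. Without Hypoxia 1 the change was -0.57 and the adjusted p 0.011.

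The second bright probe set of Myh1, 1427520_a_at, had 39804, 26267, 21783.5 and 34937 in hypoxia, against 38815, 41039, 38672 and 35008 in control, in the same order of arrays within hypoxia. Its change was -0.36 ± 0.18 (SE) with an adjusted p of 0.158, and -0.50 with an adjusted p of 0.0281 without Hypoxia 1. The third, 1452465_at, is annotated with the same source sequence as 1427520_a_at but was far dimmer, with 146, 120, 80.0 and 448 in hypoxia, against 454, 455, 418 and 436 in control. Hypoxia 4 lay among the control arrays and the other 3 hypoxia arrays fell well below them. Its change was -1.37 ± 0.38 (SE) or 2.58-fold lower, with a limma adjusted p of 0.0174, and 0.0534 without Hypoxia 2. Set against 1427868_x_at within each array, its log2 ratio differed by -0.97 between the groups (exact permutation p = 0.143).

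Myh7, the slow type I heavy chain that is also made in the heart, did not pass the test. Its signal was 1949, 744, 509.9 and 2386 in hypoxia, against 1830.0, 831, 928 and 970.1 in control. Hypoxia 1 and 4 were the highest of all 8 arrays and Hypoxia 2 and 3 the lowest, so the hypoxia arrays lay on both sides of the control arrays. The change was 0.09 ± 0.43 (SE), with a 95% interval of -0.84 to 1.02 and a limma adjusted p of 0.899. With 4 arrays a group, changes in either direction within that interval remain compatible with the data. A further 2 probe sets are annotated to Myh7 together with Myh6 and were not counted as members. The brighter of them, 1448554_s_at, had 109, 75.2, 62.0 and 439 in hypoxia, against 412, 325, 161 and 362 in control, and the groups overlapped.

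The developmental heavy chains did not pass the test either. Myh3, the embryonic isoform, had 360, 246, 242 and 363 in hypoxia, against 232, 363, 385 and 274 in control, with a change of -0.05 ± 0.23 (SE) and an adjusted p of 0.907. Myh8, the perinatal isoform, had 777, 457, 304 and 391 in hypoxia, against 595, 454, 643 and 853 in control, with a change of -0.44 ± 0.27 (SE) and an adjusted p of 0.262. In both genes the arrays of the groups were mixed. Without Hypoxia 1, the highest hypoxia array for Myh8, the change of Myh8 was -0.69 with an adjusted p of 0.0397.

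**Figure D3:**
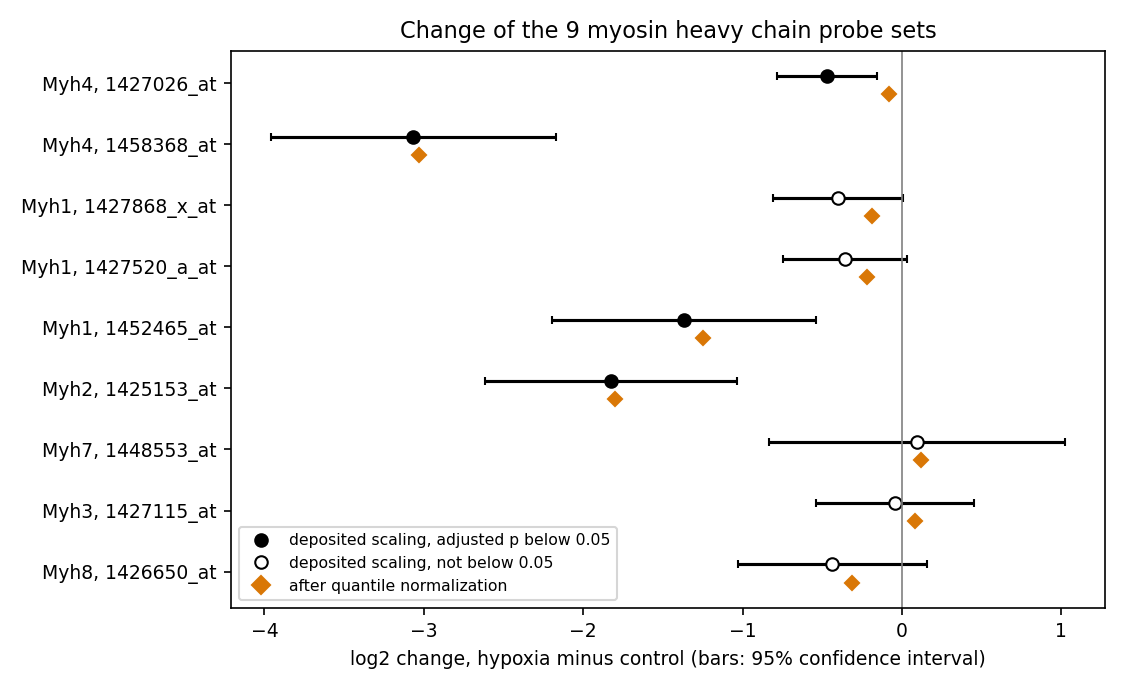
Change of each myosin heavy chain probe set, hypoxia minus control on the log2 scale, with 95% confidence intervals from limma over 4 arrays a group, filled points for adjusted p below 0.05 and diamonds for the change after quantile normalization. The interval of 1458368_at of Myh4 lies farthest from 0, followed by Myh2, and the intervals of Myh7 and Myh3 span 0 almost evenly.

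The balance between isoforms was described as each gene's share of the summed signal of the 6 genes, with the brightest probe set of each gene. Probe sets differ in affinity, so a share is of signal and not of RNA molecules, and no test was made on shares. The summed signal was 122407, 75441, 70400 and 94979 in hypoxia, against 137572, 145958, 144990 and 132157 in control, lower on every hypoxia array. Within it, Myh2 had 15.4%, 6.13%, 9.72% and 17.7% in hypoxia, against 27.3%, 24.1%, 25.9% and 24.4% in control. The share of Myh2 averaged 12.3% ± 5.29 in hypoxia and 25.4% ± 1.48 in control (SD, n = 4 each), without overlap. The difference was -13.2 percentage points, and -8.09 when the signals of all probe sets of a gene were summed. Thus the type IIa isoform made up less of the myosin signal on every hypoxia array.

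Both other adult fast isoforms took a larger share on average. Myh1 had 38.1%, 36.6%, 34.1% and 39.1% in hypoxia, against 32.3%, 29.6%, 31.3% and 30.5% in control, so its groups did not overlap although its signal was not called. Its difference was 6.07 percentage points, and 11.9 with all probe sets summed. Myh4 had 43.9%, 55.3%, 54.7% and 39.9% in hypoxia, against 38.4%, 45.2%, 41.5% and 43.6% in control, and its groups overlapped. The Myh4 difference of 6.28 percentage points turned to -4.44 when the signals of all probe sets of a gene were summed, because 1458368_at then counts, so its direction is not settled.

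The slow and developmental isoforms made up a small part of the signal. Myh7 had 1.59%, 0.987%, 0.724% and 2.51% in hypoxia, against 1.33%, 0.569%, 0.640% and 0.734% in control. The arrays with the most Myh7 in hypoxia, Hypoxia 1 and 4, were also those that kept the most Myh2. Myh3 had 0.294% to 0.383% in hypoxia and 0.169% to 0.265% in control, without overlap. The signal of Myh3 itself was not called, and the sum it was divided by was lower. Myh8 had 0.412% to 0.635% in hypoxia and 0.311% to 0.645% in control.

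**Figure D4:**
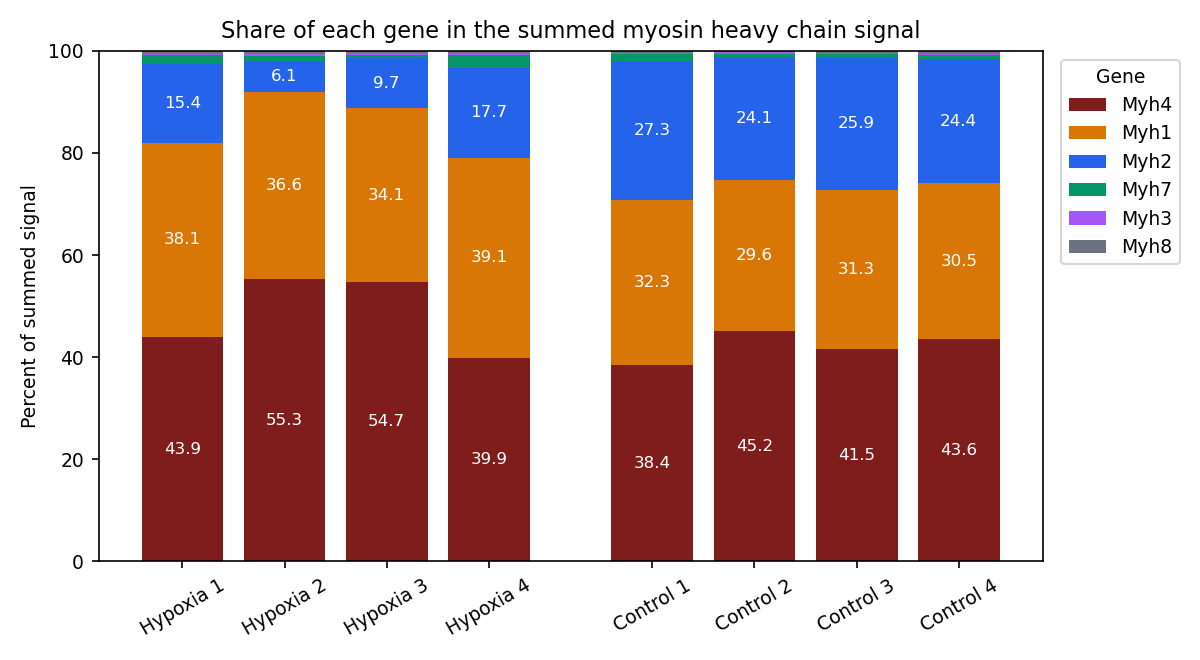
Share of each gene in the summed signal of the 6 myosin heavy chain genes, in percent of the sum on each array, as stacked bars with the 4 hypoxia arrays left of the 4 control arrays. The Myh2 part is 6.13% to 17.7% in hypoxia and 24.1% to 27.3% in control.

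Ratios within an array, in which the array's scaling cancels, were tested for the 6 pairs of the adult isoforms. The log2 ratio of Myh2 to Myh7 averaged 3.10 in hypoxia and 5.02 in control, a difference of -1.92. The ratio of Myh2 to Myh1 averaged -1.71 in hypoxia and -0.28 in control, a difference of -1.42, and that of Myh2 to Myh4 averaged -2.08 in hypoxia and -0.73 in control, a difference of -1.35. All 3 ratios of Myh2 were lower on every hypoxia array than on any control array. Each reached the smallest exact two-sided permutation p that 4 against 4 allow, 0.0286, which is 0.0571 after Benjamini-Hochberg adjustment over the 6 pairs. The ratio of Myh7 to Myh4 differed by 0.56 (exact permutation p = 0.343), that of Myh7 to Myh1 by 0.50 (exact permutation p = 0.229) and that of Myh1 to Myh4 by 0.07 (exact permutation p = 0.714). For Myh1 and Myh4, then, an unequal change was not detected with their brightest probe sets and 4 arrays a group.

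A pair of noncoding genes of the same locus were measured. The RNA 2310065F04Rik, known as linc-Myh, is transcribed on the minus strand between Myh3 and Myh2 at chr11:67112461-67120080, and in mouse it has been linked to the enhancer that serves the fast myosin genes. Its signal was 33.4, 22.4, 24.4 and 57.9 in hypoxia, against 1131.5, 1788, 978 and 1761 in control. Every hypoxia array was below 90.2, the signal that the filter on dim probe sets corresponds to, and no control array was near it. The change was -4.83 on the log2(signal + 16) scale with a limma adjusted p of 2.78e-07, and its size depends on the added constant. The gene annotated Myhas, an antisense RNA whose RefSeq start lies 531 bases from that of Myh4 on the other strand, had 9356, 5801, 7830 and 8823 in hypoxia, against 10305, 10711, 9709 and 10590 in control. Hypoxia was lower on every array but the change of -0.40 did not pass, at an adjusted p of 0.0771. Its probe set shares its annotated source sequence with the Myh1 probe set 1427868_x_at, so which transcript it reads is uncertain.

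Contractile genes of fast fibres fell as well: of 12 such genes tested, 11 were lower, none was higher, and the median change was -0.64. For comparison, with the brightest probe set of each of the 13258 genes tested, 17.8% were lower and 14.0% higher. The lists overlap: Mylpf, Myl1, Mybpc2 and Myoz1 are counted here and once more in a list below. Parvalbumin (Pvalb), the calcium buffer of fast fibres, had 10680, 10758, 11519 and 10329 in hypoxia, against 53123, 60878, 52367 and 45682 in control, a change of -2.28 (limma adjusted p = 2.17e-07). Casq1, which stores calcium in the sarcoplasmic reticulum, changed by -3.10, and Myoz1 and Actn3, both of the fast Z-disc, by -1.38 and -0.73. Another probe set of Myoz1 changed by -2.64. None of these 4 genes, named for the smallest p in the list, overlapped between groups. Of all probe sets tested, 17.0% were lower without overlap. Tnni2, called lower, and Tnnc2, not called, are in the same list and overlapped. The 4 hypoxia arrays of Pvalb were close together where those of Myh2 were spread. With quantile normalization 8 of the 12 were called lower, and with median centring 7.

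Genes of slow fibres did not move together. Of 9 slow contractile genes tested, 1 was lower and none higher, against 17.8% lower and 14.0% higher of all genes tested. Their median change was -0.14. The one called was Myl3, the slow essential light chain, with 4387, 908, 1097 and 4521.5 in hypoxia, against 10240, 7667, 6526 and 7003 in control, a change of -1.87 (limma adjusted p = 0.00868). Tnnt1, slow troponin T, had 1554, 247, 241.0 and 1224 in hypoxia, against 741, 525, 456 and 494 in control. Myl2, the slow regulatory light chain, had 7180.0, 1489.5, 2954 and 12138 in hypoxia, against 5791, 6176.5, 5252 and 6251 in control. In both genes, as in Myh7, Hypoxia 1 and 4 were above and Hypoxia 2 and 3 below all control arrays. This held in 3 of the 9 slow genes, Tnnt1, Myl2 and Myoz2, a tally made after their values were seen. Tnni1, slow troponin I, did not show it, with 363, 260, 528 and 1520.4 in hypoxia, against 812, 445, 774 and 640 in control.

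The list of light chains and their kinase had 4 genes lower and 1 higher of the 6 tested, with a median change of -0.64. Among all genes tested, 17.8% were lower and 14.0% higher. The 4 lower were the light chains Myl3, Mylpf and Myl1 and the kinase Mylk2, which phosphorylates the fast regulatory light chain. Mylk2 changed by -1.33, and the fast light chains Mylpf and Myl1 by -0.67 and -0.61. Myl4, the embryonic and atrial essential light chain, had 1971, 2673, 2018 and 2310.4 in hypoxia, against 754.5, 1119, 839 and 1287 in control, a change of 1.17 (limma adjusted p = 0.000593), while another probe set of Myl4 changed by 0.06. So the developmental light chain was higher by 1 of its probe sets where the developmental heavy chains Myh3 and Myh8 were not called.

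Of 9 thick filament partners tested, Mybpc2 of the fast list among them, 4 were lower and none higher, with a median change of -0.47. The share over all genes tested was 17.8% lower and 14.0% higher. With quantile normalization and median centring, 3 and 2 of the partners were lower. Mybpc2, fast myosin-binding protein C, had 31611, 26194, 20767 and 21602 in hypoxia, against 41892, 49755, 49000.2 and 43825 in control, a change of -0.90 (limma adjusted p = 0.000869). Ttn, which encodes titin, changed by -0.47, and Myom2, an M-band protein of fast fibres, by -0.48. The 5 other Ttn probe sets tested changed by -2.25 to -0.38, and the 2 others of Myom2 by -0.85 and -0.59. Mybph changed by -2.67, with 23.1, 236, 705 and 25.6 in hypoxia, against 371, 795, 1166 and 1274 in control, and its groups overlapped. Hypoxia 1 and 4 lay below 90.2, the filter's signal, so the size of this change depends on the added constant. The calls of Ttn and Myom2 were lost with median centring and that of Mybph without Hypoxia 1.

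The list of myosin folding and turnover changed in both directions, with 4 of 10 lower and 3 higher and a median of -0.17. All genes tested had 17.8% lower and 14.0% higher. The 4 lower were Smyd1, Unc45b, Trim54 and Myoz1, the last a Z-disc gene already given with the fast genes. Smyd1, a methyltransferase that binds myosin during thick filament assembly, had 1291, 1185.0, 1577 and 1896 in hypoxia, against 7658, 7033, 6577 and 6841 in control, a change of -2.25 (limma adjusted p = 1.38e-06), and 1 of its 4 other probe sets changed in the opposite direction. Unc45b, the chaperone that folds the myosin head, changed by -1.16. Trim63, or MuRF1, the ubiquitin ligase that marks myosin heavy chain for degradation in atrophy, had 37778, 31749, 29508 and 32802 in hypoxia, against 18187, 15198, 16553 and 14730.3 in control. Its change was 1.03 (limma adjusted p = 0.000111), and every hypoxia array was above every control array. The small heat shock gene Hspb1 changed by 0.85.

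Among 30 regulators of fibre type tested, 8 were lower and 3 higher, with a median change of -0.20, and 5 were lower with median centring. By comparison, 17.8% of the 13258 genes tested were lower and 14.0% higher, each by its brightest probe set. Beside linc-Myh the lower ones with the smallest p were Maf, a large Maf factor that in mouse takes part in the type IIb programme, Mef2c, a factor that activates muscle genes, and Eya1, a transcriptional cofactor in fast fibres. Maf had 1263, 2175.5, 2484 and 1251.5 in hypoxia, against 9904, 7470, 6251 and 8593 in control, a change of -2.20 (limma adjusted p = 2.77e-05). Mef2c changed by -1.25 and Eya1 by -1.19. For Maf the order of the hypoxia arrays was turned round relative to Myh2 and Myh7: Hypoxia 1 and 4 were the lower pair. The 3 called higher were Eya3, Vgll2 and Tead4, at 0.68, 0.60 and 0.77, and the 2 other probe sets of Eya3 changed in the opposite direction.

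Of 12 genes of regenerating and developing muscle tested, 5 were higher and 3 lower, with a median of 0.61, against 14.0% higher and 17.8% lower of all genes tested, and the members with the smallest p went both ways. Myl4 is also in this list. Ankrd1, a titin-binding stress protein, had 11714, 24672, 16211 and 16198 in hypoxia, against 282, 396, 272 and 289.8 in control, a change of 5.69 (limma adjusted p = 1.37e-08). Myf6, the myogenic factor of mature fibres, and Tnnt2, the cardiac and embryonic troponin T, each changed by 1.22. Chrna1 was also called higher, at 0.78. Actc1, the cardiac actin made in developing muscle, changed by -3.91. The others called lower were Myod1 and Vim, at -1.66 and -0.80. Myog, Myf5, Mymx and Ncam1 were not called, and Pax7, Mymk, Chrng and Chrnd were too dim to be tested. Among the other myosin heavy chains of the genome, 1 of 5 tested was called, the smooth muscle gene Myh11 at -0.94 (limma adjusted p = 0.0127).

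**Figure D5:**
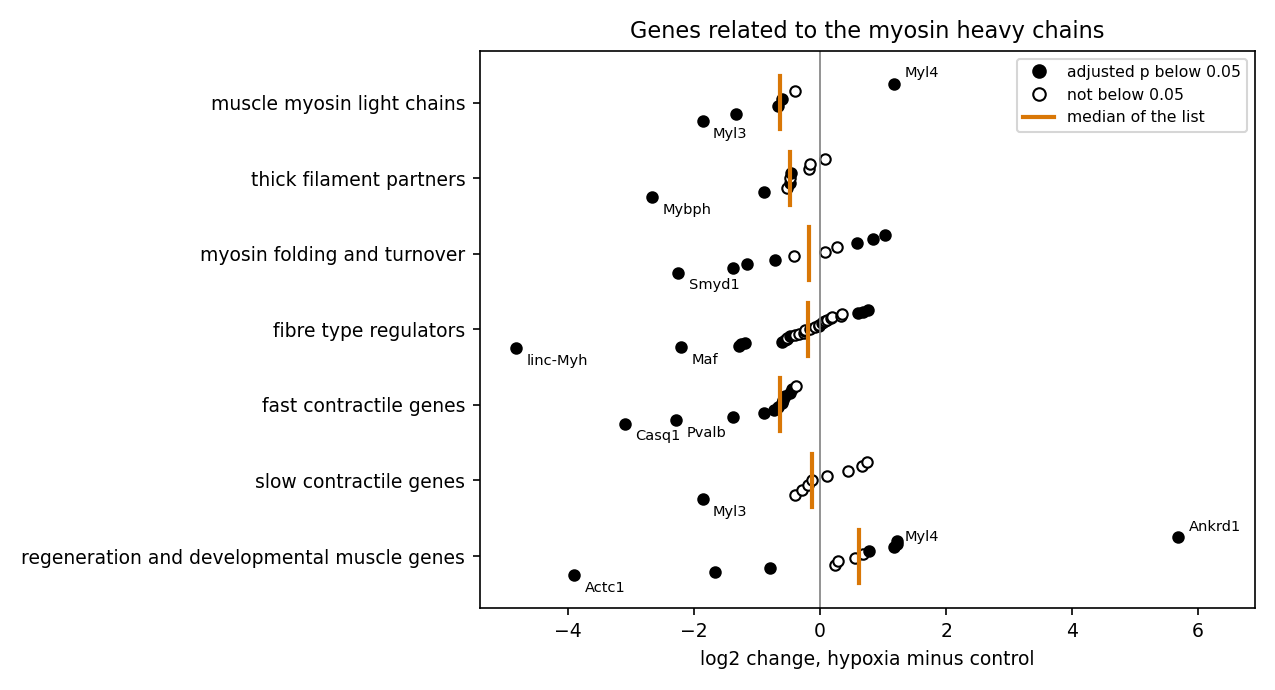
Change of each tested gene of the lists related to the myosin heavy chains, hypoxia minus control on the log2 scale, with 1 row per list and filled points for genes that passed the test and a bar at the list's median. The 12 fast contractile genes all lie below 0, with 11 called, while the regeneration and folding lists have called genes on both sides.

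Markers of other cells moved in the same comparison, and their part in the myosin results was not tested. For these counts too, the share over all genes tested was 17.8% lower and 14.0% higher. All 6 fibroblast markers were lower by their brightest probe set. Their summed signal was 13625 to 18198 in hypoxia and 43852 to 48976 in control. Another probe set of Dcn changed by 0.67 and 1 of 2 others of Pdgfra by 0.29, the opposite direction. Other probe sets of Col1a1 and Col3a1 changed by -1.99 and -2.81. All 4 smooth muscle and mural markers tested were lower, at 10044 to 20062 in hypoxia and 24791 to 31187 in control. Of the neutrophil markers, 2 of 4 tested were higher, S100a8 and S100a9, and the sum was 2869 to 5311 in hypoxia and 500.0 to 860 in control. The rise in the sum came from S100a8 and S100a9, with means of 2508 and 1056 in hypoxia, against 271 and 49.6 in control. Elane and Csf3r were not called, at -0.01 and -0.11, and Mpo was too dim to be tested. Macrophage markers gave 1 higher and 2 lower of 8, with sums of 8779 to 16790 in hypoxia and 10157 to 14408 in control, and none of the 6 endothelial or 3 satellite cell markers was called. Both adipocyte markers tested were lower, with sums of 974.6 to 3612 in hypoxia and 2810.0 to 17757 in control, as was 1 of 2 Schwann cell markers, and the 1 red blood cell gene tested was not called. The skeletal fibre markers themselves were lower in 7 of 8 cases, but in 2 with quantile normalization and 3 with median centring. Their sums were 251537 to 325180 in hypoxia and 377789 to 454252 in control. The list includes Myh4 itself, with Tnnt3 and Mylpf of the fast list and Ttn of the thick filament list.

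The genes whose signal followed each myosin most closely were found by Pearson correlation over the 8 arrays, among 13258 genes, as a description. For Myh2 they were Mdh1 (r = 0.99), Myl3 (r = 0.98) and Car3 (r = 0.98), which encode a malate dehydrogenase, the slow light chain and a carbonic anhydrase of slow muscle. For Myh7 they were Tnnt1 (r = 0.93), Bmp6 and Per3 (each r = 0.92). For Myh4 they were Marchf6, Bloc1s5 and Hat1, at r between 0.97 and 0.99, for Myh1 Mrpl13, Ndufb11 and Grk5, at 0.96 to 0.97, for Myh8 Vamp3, Vti1b and Nr2f6, each at 0.97, and for Myh3 Rph3al, Ermap and Gm4793, at 0.91 to 0.93. These values mix the difference between groups with the spread within them, and the arrays share 1 scaling each.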

How the data were processed

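Total RNA from quadriceps of 8 samples was hybridised to Affymetrix mouse arrays, 1 per sample. The authors deposited 1 signal intensity per probe set and array on a linear scale, made with MAS5 per the submitters' processing notes; its version was not given in the sources used here and no detection calls were used. Arrays were kept at the deposited scaling. With limma 3.58.1 in R 4.3.3, log2(signal + 16) was fitted (lmFit, eBayes with an intensity trend) after leaving out 64 control probe sets and the dimmest 40% of the others, which left 27023, with Benjamini-Hochberg adjustment over them and a threshold of 0.05. The fit was checked on simulated data. A gene with several probe sets is represented by its brightest, and the myosin heavy chains by all.

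The annotation pairs 34958 probe sets with 1 symbol, 932 with several and 9211 with none. Nothing in the labels says that the samples come from separate animals. The p-values set group differences against the spread among these samples, and whether they extend to separate mice is not known. The number of arrays limits the precision. The genes and lists were chosen with earlier results of these data known. All myosin probe sets are named. Of each related list up to 4 called genes with the smallest p are named, together with the genes of any direction called in 5 or fewer that the text adds after their values were seen, and for each myosin the 3 genes with the highest correlation. Motif shares count RefSeq promoter windows of GRCm38.p6; the array annotation is not tied to those coordinates. Alternatives were 2 other scalings, pseudocounts of 1 and 64, other filters, 1 probe set per gene, other variance models, a replicate block and leaving out each array.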

Additional observations from a re-analysis of the deposited data

How the results depend on the processing

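The calls of Myh2 and of 1458368_at of Myh4 held under every alternative that included them. The number of myosin heavy chain probe sets called was 4, and between 2, without Hypoxia 2, and 7, without Hypoxia 1, when single arrays were left out; with 1 probe set per gene it was 2 of 6, and 4448 instead of 7790 probe sets were called in all, since fewer were tested. When the probe sets of a gene were averaged, the share differences were 11.5 percentage points for Myh1, 0.233 for Myh3 and 0.224 for Myh8, and when they were summed the differences were 11.9 for Myh1, -8.09 for Myh2 and -4.44 for Myh4. Array weights, which gave Hypoxia 1 a weight of 0.444, added 1427868_x_at of Myh1 at a limma adjusted p of 0.0393. Quantile normalization and median centring raised the share of called probe sets that were higher in hypoxia to 50.2%, against 43.2%, and moved the median change of all probe sets to 0.04. The sequences and transcript parts read by each probe set are not known here, and whether the scanner's range limited the brightest myosin signals was not tested.

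Same-numbered arrays did not deviate together (r between -0.0737 and 0.0068). Such values show no shared deviation by number, but they cannot tell whether the samples were paired. With the number as a replicate block 6882 probe sets were called, 3 of them myosin heavy chains, and the call of 1427026_at of Myh4 was lost.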
